A study of Mus musculus with 6 samples.

Results

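The sequences described here are 174 double-stranded DNA oligos that carry the core site of a Gli protein unaltered and differ from it only in the bases just downstream. They were taken from a table of 1266 sequences of 16 bases, in which the most frequent base at each position gives a reference sequence. A member matches the reference at positions 1 to 9 and 14 to 16 and has 1, 2 or 3 mismatches at positions 10 to 13, counted from the 5′ end of the listed strand. All 174 sequences that this rule allows were present, 12 with 1 mismatch, 54 with 2 and 108 with 3. The rule uses the bases alone.

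Gli proteins are zinc finger transcription factors at the end of the Hedgehog signalling pathway, where they switch target genes on or off. Each finger of the array reads a few neighbouring bases, and the fingers at the carboxyl end make most of the contacts with the core of the site. Positions 10 to 13 lie just beyond that core. The oligos are synthetic, so they have no place in the genome. In the assay, called Spec-seq, protein is mixed with a pool of variants, a gel separates bound from unbound DNA, and both fractions are sequenced, so that the ratio of bound to unbound reads ranks the variants within 1 reaction.

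The series holds 3 binding reactions with recombinant mouse Gli protein (Gli1 in the titles), each with 1 bound and 1 unbound library. The table of 16-base sequences has 1 bound and 1 unbound column and names no reaction. Its 5 overlapping windows match in number the title Gli1-R1-R5, whose samples are labelled as holding both unmethylated and M.SssI-treated libraries. M.SssI is an enzyme that methylates the C of CpG. The table does not separate these states, so the methylation of the members is not known. Each fraction was sequenced once, and every error below is a counting standard error (SE) unless an SD is named. Errors of fitted slopes and terms are instead regression SEs over sequences.

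The reference and its 12 single-base variants show which bases were changed. In the reference, capitals mark the 4 varied positions. In every other sequence, capitals mark the bases that differ from the reference.
Reference: gaccacccaAGATgaa
A10C: gaccacccaCgatgaa
A10G: gaccacccaGgatgaa
A10T: gaccacccaTgatgaa
G11A: gaccacccaaAatgaa
G11C: gaccacccaaCatgaa
G11T: gaccacccaaTatgaa
A12C: gaccacccaagCtgaa
A12G: gaccacccaagGtgaa
A12T: gaccacccaagTtgaa
T13A: gaccacccaagaAgaa
T13C: gaccacccaagaCgaa
T13G: gaccacccaagaGgaa

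The members at both ends of the range with 2 mismatches are shown because they set the span of that class. The first 3 had the highest ratios and the last 3 the lowest.
A10C T13G: gaccacccaCgaGgaa
A10C A12G: gaccacccaCgGtgaa
A10C T13A: gaccacccaCgaAgaa
G11T A12C: gaccacccaaTCtgaa
G11A A12T: gaccacccaaATtgaa
G11A T13A: gaccacccaaAaAgaa

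With 3 mismatches, the ends of the range were these sequences, again with the 3 highest first.
A10G A12G T13C: gaccacccaGgGCgaa
A10C A12G T13G: gaccacccaCgGGgaa
A10G A12G T13G: gaccacccaGgGGgaa
G11T A12T T13A: gaccacccaaTTAgaa
G11A A12C T13A: gaccacccaaACAgaa
A10G G11A T13A: gaccacccaGAaAgaa

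All 6 of the high sequences kept G at position 11 and gained at least 1 G or C, and all 6 of the low ones had A or T at position 11.

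Most reads of the members came from the bound library. They drew 493911 bound and 11172 unbound reads of the table's 2101584 and 291875, so unbound reads made up 2.21% of the members' reads. Bound counts per member ran from 663 to 17352 with a median of 2275. Unbound counts ran from 15 to 185 with a median of 57, and these thin counts set the error. All 174 members had at least 10 reads in each fraction. A member's difference from the reference had a median SE of 0.15 on the natural log scale, so at the median error a single member could be told from the reference only beyond about 1.35-fold. The libraries were not scaled for depth, so a ratio has meaning only beside another ratio of the same table.

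In the 16-base table, members with more mismatches did not have lower ratios. The reference had 8450 bound and 236 unbound reads, a ratio of 35.7. Ratios of the members ran from 18.3 to 114, a 6.26-fold span, with a median of 38.7. On the natural log scale the median change from the reference was 0.04 with 1 mismatch, 0.02 with 2 and 0.12 with 3. These medians share the reference, whose own log ratio had an SE of 0.07, and the first 2 lie within it. With the reference at the value predicted by an additive model of other sequences of the window, described below, the medians were 0.15, 0.12 and 0.23. The 81 sequences with all 4 bases replaced, which are not members, had a median of 0.19.

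A member was called lower or higher when it differed from the reference by more than 2 SE of the difference. By this rule 23 of 174 members were lower, 52 were higher and 99 were neither. Of the 1263 sequences of the whole table with enough reads, members included and the reference left out, 62.9% were lower and 9.5% were higher than the same reference. Among members with 1 mismatch, 2 were lower and 3 higher. With 2 mismatches the counts were 11 and 16 of 54, and with 3 they were 10 and 33 of 108. The reference is a single measurement shared by all these calls. An additive model of the window was fitted without it and without the variants changed only at position 10 or only at 13. The fit included the 81 sequences with 4 mismatches, so it is not the fit to the members alone given later. It placed the reference at a log ratio of 3.47 ± 0.04 (regression SE), against 3.58 observed. Taken against that prediction, 12 members were lower and 62 higher.

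No single change at position 10 was called lower, and 2 of the 3 were called higher. A10C had 4445 bound and 72 unbound reads, a ratio of 61.3, and was higher than the reference 1.72-fold (0.54 ± 0.14). A10G had 6734 and 150 reads and a ratio of 44.7, a difference of 0.23 ± 0.11. The third change, A10T, had 4067 and 117 reads and a ratio of 34.6, which lay 0.03 below the reference with an SE of 0.11. The most frequent base of the table, A, was thus not the base with the highest ratio here.

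At position 11 the reference base G had the highest ratio of the 4 bases, beyond error for A and T. G11A had 1068 bound and 58 unbound reads, a ratio of 18.3, the lowest of all members and 1.96-fold below the reference (-0.67 ± 0.15). G11T had 1341 and 53 reads and a ratio of 25.1, a change of -0.35 ± 0.15. G11C, with 1272 and 47 reads and a ratio of 26.8, lay at -0.29 ± 0.16, within 2 SE of the reference.

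At positions 12 and 13, 1 of 6 single changes was called. A12C had 2334 bound and 57 unbound reads and a ratio of 40.6, A12G had 3265 and 81 reads and 40.1, and A12T had 2727 and 93 reads and 29.2. All 3 lay within 2 SE of the reference. At position 13, T13G had 7341 and 164 reads and a ratio of 44.6, a difference of 0.22 ± 0.10, and was called higher. T13C had nearly the same ratio, 46.0, from 3750 and 81 reads, but its difference of 0.25 ± 0.13 fell just short of 2 SE. T13A had 2678 and 95 reads and a ratio of 28.0, at -0.24 ± 0.12, also within 2 SE.

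Members that kept G at position 11 had a median change of 0.33, and 39 of 63 were called higher and 1 lower. Members that lacked it had a median of -0.07, with 13 of 111 higher and 22 lower. The class with the highest median was that with mismatches at 10, 12 and 13. Its 27 members had a median of 0.58, or 1.78-fold above the reference, and 21 were called higher and none lower. Next came the 9 members mismatched at 10 and 13, with a median of 0.43, and the 9 mismatched at 10 and 12, with 0.29. The 9 members mismatched at 12 and 13 lay at 0.10.

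Of the 7 classes that replaced G at position 11, 6 had a median below the reference. The 9 members mismatched at 11 and 12 had a median of -0.27, with 5 called lower and none higher. Those mismatched at 10 and 11 had -0.16, and those at 11 and 13 had -0.10 (9 each). With 3 mismatches the medians were -0.13 for positions 11, 12 and 13, -0.03 for 10, 11 and 12, and 0.17 for 10, 11 and 13 (27 each). A class that also changed position 10 had a higher median than the class without that change in each of these sets, and the ranges of all of them overlapped.

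The number of G and C bases at positions 10 to 13 ordered the members far more closely than the number of mismatches. The reference has 1 such base. The 14 members with no G or C had a median change of -0.42, from -0.67 to -0.16, and 11 were called lower. The 50 members with 1 lay at -0.13, the 66 with 2 at 0.10 and the 36 with 3 at 0.49. All 36 members with 3 lay above the reference, 28 of them by more than 2 SE. The 8 with 4 had a median of 0.88, or 2.41-fold above the reference, and all 8 were called higher. By the member rule, the 14 without G or C all lacked G at position 11, and the 8 with 4 all kept it. At these 2 ends, the number of G and C and the base at position 11 cannot be told apart.

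All 8 members made wholly of G and C at these positions had ratios within a 1.39-fold range. The strongest were A10G A12G T13C, with 9723 bound and 86 unbound reads and a ratio of 112, and A10C A12G T13G, with 9389 and 84 reads and a ratio of 111. A10G A12G T13G had the deepest counts of any member, 17352 and 185, and a ratio of 93.5. The other 5 had ratios from 80.7 to 88.1. The lowest of the 8, A10C A12C T13C, had 2542 and 31 reads. Its ratio still lay above those of all 14 members without G or C, which reached 30.4 at most.

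A straight line gave a rise in log ratio of 0.31 ± 0.02 (regression SE) per G or C, a factor of 1.37, and held 68.8% of the variance over the 174 members. Sequences are not replicates, so this is a description. The slope was 0.39 ± 0.06 with 1 mismatch, 0.32 ± 0.03 with 2 and 0.31 ± 0.02 with 3. With G and C as separate terms, the rise was 0.34 ± 0.02 per G and 0.27 ± 0.02 per C. The slope was steeper in members that kept G at position 11, at 0.35 ± 0.03, than in those that lacked it, at 0.23 ± 0.02.

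The trend did not hold all of the order. At the same number of G and C, a kept G at position 11 went with higher ratios when there were 2 or 3 such bases. With 3, the 24 members that kept it had a median change of 0.51 and the 12 that lacked it 0.30. For 2, the medians were 0.20 over 24 members and 0.04 over 42. With 1, they were -0.13 for both, over 7 and 43 members. The ranges overlapped in every case.

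Pairs of members that differ at 1 position and share the other 3 bases compare bases in the same context. At position 10, C was above A in 36 of 36 pairs, by a median of 0.45, and G was above A in 35 of 36, by 0.43. At position 11, G was above A in 35 of 36 pairs (median 0.39), above T in 34 of 36 (0.29) and above C in 28 of 36 (0.17). Position 12 had smaller gaps, with G above A in 30 of 36 pairs (0.26) and C above A in 25 of 36 (0.13). At position 13, G was above T in 33 of 36 pairs (0.34) and C above T in 32 of 36 (0.25). Pairs share members, and a single pair had a median SE of 0.17 to 0.20.

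Between G and C, or between A and T, the gaps were mostly smaller. At position 13 the median of G minus C was 0.04 and that of A minus T was 0.00, with 18 of 36 pairs on each side. At position 10 the median of C minus G was only 0.04, but the pairs were spread with an SD of 0.31 around a median SE of 0.19. C was above G by more than 2 SE in 8 of 37 pairs and below it in 2. Of those 8, 7 had A at position 12, as did 16 of all 37 pairs and 1 of the 2 in which C was below. T was above A at position 10 in 27 of 36 pairs, by a median of 0.18.

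A few members stood away from the trend. The largest excess was that of A10C G11T T13A, 0.72 ± 0.26 above the line for its 1 G or C, but it rested on 967 bound and 15 unbound reads, the fewest unbound of any member. A10C T13G lay 0.70 ± 0.17 above the line for 3, with 4175 and 36 reads and the highest ratio of all members, 114. A10C T13A lay 0.52 ± 0.21 above, with 1655 and 23 reads and a ratio of 70.4. These 3 share C at position 10 and A at position 12, but so do members with low ratios for their number of G and C. A10C G11C, with 2 such bases, had a change of -0.16, where the median of its class was 0.10. The shared bases were read off the extremes and do not mark members above the line.
A10C G11T T13A: gaccacccaCTaAgaa

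Furthest below the line were 3 members with 2 G or C each. G11C A12T T13C lay at -0.49 ± 0.15, with 1239 bound and 48 unbound reads. A10G G11A T13C lay at -0.46 ± 0.12 and G11A A12C T13C at -0.43 ± 0.17. They all lacked G at position 11 and ended in C at position 13, but so did members with high ratios for their number of G and C. A10C G11T T13C, also with 2 such bases, had a change of 0.47, where the median of its class was 0.10. In all, 13 members lay above and 17 below the line by more than 2 of their own SE.

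An additive model, with 1 term per base and position, held 81.5% of the variance over the members. Its residual SD was 0.17, against a root mean square counting SE of 0.14. The largest terms were A10C at 0.50, G11A at -0.44 and A10G at 0.41. T13G stood at 0.35 and T13C at 0.28, while A12T (-0.04) and T13A (0.04) were near 0. Each term had a regression SE of 0.04.

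Additivity was read from sums of single changes. For each of the 54 members with 2 mismatches, the observed change was set against the sum of its 2 single changes. Only 2 members lay above the sum by more than 2 SE and none lay below it. The same count over the 270 such sequences in all 5 windows of the table gave 10% above and 21.9% below. The windows differ in counting error, which affects these shares. Median unbound counts were 57 for the members and 131.5 for the window at positions 7 to 10. A10T G11A had 1232 bound and 40 unbound reads and a change of -0.16, where its single changes sum to -0.70, a departure of 0.54 ± 0.24. G11A T13G had 1815 and 50 reads and a change of 0.01, where the sum is -0.45, a departure of 0.45 ± 0.22. Both hold G11A, the single variant with the lowest ratio. Next above the sum was G11A A12G, at 0.42 ± 0.22. These departures all subtract the same measured change of G11A, -0.67, where its additive term was -0.44. They are thus not separate observations.

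Below the sum, A10C G11C lay furthest in units of SE, at -0.41 ± 0.26, followed by G11T T13G, at -0.30 ± 0.20, and A10C T13C, at -0.30 ± 0.24. The departures had a median of 0.11, and those of the 108 members with 3 mismatches a median of 0.24, with 93 above 0. Of these 108, 10 lay above the sum by more than 2 SE and none below. Every departure includes the reference. With the reference at its predicted value, these medians were 0.00 and 0.03, and 28 of 54 and 62 of 108 were above 0. None of the 54 was then above the sum by more than 2 SE, and 2 were below it. For the 108, the count beyond 2 SE was not repeated with the predicted reference or set beside the other windows.

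The bound and unbound counts did not contribute equally to the trend with G and C. Per G or C, the log bound count rose by 0.40 ± 0.04 and the log unbound count by 0.09 ± 0.04. From 0 to 4 such bases, median bound counts went from 1200 to 7140, and median unbound counts from 52 to 72.5. Since nearly all reads are bound, the total reads of a member rose too, by a factor of 1.48 per G or C. How much the starting amount of each oligo, its recovery and its binding add to the ratio was not tested.

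Some sequences belong to a neighbouring window as well. Variants changed only at position 10 had 4184 to 6884 reads in all, and those changed only at position 13 had 2773 to 7505. Those changed only at 11 or 12 had 1126 to 3346. The range for position 13 overlaps each of the others. The range for position 10 lies wholly above that for 11 or 12. The reference, which every window holds, had 8686. Counts of different libraries cannot be told apart in the table.

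CpG dinucleotides were held by 61 members, counting a C at position 13 before the fixed G at position 14. The 32 members whose only CpG was at 13 and 14 had a median change of 0.19. With the only CpG at 10 and 11, 11 members had a median of 0.64, and 10 of them were called higher. For 11 and 12, and for 12 and 13, the medians were 0.11 and 0.21 (6 members each). The 113 members without CpG had a median of -0.05. These classes differ in their number of G and C, and methylation was not tested.

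The windows on either side were set beside the members, each as its own 174 sequences with 1 to 3 mismatches. At positions 7 to 10, which include the end of the core, ratios spanned 40.6-fold and unbound reads made up 8.87% of reads. The slope per G or C there was 0.33 ± 0.07 and held 12.6% of the variance. At positions 13 to 16 the span was 4.91-fold, and the slope of 0.25 ± 0.01 held 63.8%. The members' slope differed from the latter by 0.06 ± 0.02 and from the former by -0.02 ± 0.07 (regression SEs combined). Sequences are not replicates and the windows share some of them, so these differences are a description.

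All 174 members also appear, as positions 10 to 16, in the R4-R5 block of another reaction, named R4-R6, with 39 to 3430 bound and 135 to 8402 unbound reads each. The titles and block headings of that reaction were followed, although its samples' characteristics name another library. In that reaction unbound reads made up 53.0% of the members' reads, against 2.21% in the 16-base table. There ratios spanned 108-fold, 159 members were lower than the reference and 8 were higher, where 95.9% and 1.97% of all 507 sequences of that block were. By number of mismatches the median change was -0.90 with 1, -1.63 with 2 and -1.81 with 3, so in this reaction members with more mismatches were lower at the median. Across the members, r between the reactions was 0.424 and rho 0.422. The slope per G or C was of like size, 0.29 ± 0.08, but held 7.4% of the variance. In pairs with the same other bases, G at position 13 was above T by a median of 0.34 in the 16-base table and below it by 0.94 in the R4-R6 reaction. C at position 12 was above A by 0.13 in the first and below it by 0.92 in the second. C at position 10 was above G by 0.04 and by 1.26. G at position 11 was above C by 0.17 and by 1.16, the same direction in both.

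The 6 highest sequences printed for 2 and 3 mismatches did not all go the same way in the R4-R6 reaction. A10G A12G T13G had 3200 bound and 8402 unbound reads in the R4-R6 reaction, a ratio of 0.381 where the reference had 3.66. A10C T13G had a ratio of 1.90 and A10G A12G T13C one of 2.26, also below the reference. The 2 others below it were A10C A12G, with 3.14, and A10C A12G T13G, with 0.791. A10C T13A was above it, with 5.69 (0.44 ± 0.10). The single variant A10C was above the reference in both, with 7.27 in the R4-R6 reaction. The 6 lowest sequences printed for 2 and 3 mismatches were also below the reference there, as G11A T13A, with 19.2 in the 16-base table and 0.172 in the R4-R6 reaction. Since 159 of the 174 members and 95.9% of all 507 sequences of the block were lower there, this does not set the 6 apart.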

How the data were processed

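The authors deposited whole-number read counts per sequence for the bound and unbound fractions, and the ratio of the bound to the unbound count, per the file headers. The deposited ratio equals the quotient of the counts. Neither is scaled for depth. The software that counted the reads is not given in the sources used here.

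The log ratio was the natural log of bound over unbound after 0.5 was added to each count, with at least 10 reads in each fraction. Its SE came from the reciprocal counts, and a difference was called beyond 2 SE. PCR reads are not independent molecules, so SEs cover counting error only, and with 1 library per fraction no p-value was computed. Trends and additive fits were ordinary least squares across sequences.

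Named sequences were the reference, all single variants, the 3 highest and 3 lowest members with 2 and with 3 mismatches, and the 3 furthest from additivity on each side. Members of 4 G and C and those furthest from the trend were named after their values were seen. Members, classes and rules were chosen with earlier results of these data known. The calculations were tested on simulated data. Python 3.11.15, numpy 2.4.6 and pandas 2.3.3 were used.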

Additional observations from a re-analysis of the deposited data

Results flagged for a closer look

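Taken against the reference of each table, 44 of the 174 members lay on opposite sides of it by more than 2 counting SE in the 16-base table and in the R4-R6 reaction. All 44 were higher in the 16-base table and lower in the R4-R6 reaction. They were among the 52 members called higher in the former. In the R4-R6 reaction, however, 159 of the 174 members and 95.9% of all 507 sequences of the block were lower than the reference. With so many lower there, most members called higher in the 16-base table would be on opposite sides. The count of 44 therefore does not set these members apart. A further 27 members were beyond 2 SE in the same direction in both, 6 higher and 21 lower. The R4-R6 samples carry characteristics that name another library, in conflict with their titles, and each reaction was measured once. The difference between the reactions was not tested beyond counting error.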

How the results depend on the processing

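With at least 100 reads in each fraction, 25 members were left, chosen by construction among those with many unbound reads. The median change was then 0.22 with 1 mismatch and 0.20 with 2, 2 members were lower and 13 higher, the slope was 0.35 per G or C, and r with the R4-R6 reaction was 0.18. Departures from additivity and the additive model were not computed on so few. Beyond 3 SE, 8 members were lower and 30 higher, and 0 members with 2 mismatches lay above the sum of their single changes. With the predicted reference, 12 members were lower, 0 lay above the sum and 2 below it. The slope was 0.34 for G, 0.27 for C and 0.39 over members with 1 mismatch. A pseudocount of 1, the deposited ratio, no count minimum and weighted fits gave values near those reported. Unbound counts, 57 at the median, limit every ratio.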
